A study of Mus musculus with 6 samples.

Results

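The genes described here mark the blood vessel lining, the supporting stroma and the bone of the marrow, in arrays made from sorted megakaryocytes. They are 36 genes in 3 classes: 18 endothelial, 10 stromal and 8 bone genes. They were chosen by name, as rows of the expression table that carry that gene's symbol and no other. Earlier results of these data were known when the members were chosen. Of the 36, 33 had such a row (17 endothelial, 9 stromal and 7 bone) among 30063 named genes. Egfl7 and Pdgfra lay on rows shared with microRNA genes and Runx2 was not analysed here.

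The megakaryocytes came from the bone marrow of female C57 mice, and the sort took cells of high side scatter, high CD41 and a DNA content of at least 8N. The AML group holds 3 arrays of mice with acute myeloid leukaemia induced by the fusion oncogene MLL-AF9, and the control group holds 3 arrays of healthy mice. These arrays, AML_MK1 to AML_MK3 and CON_MK1 to CON_MK3, are biological replicates per the labels. The labels give neither the ages of the mice, nor how the oncogene was introduced, nor whether animals were pooled. The p-values therefore measure only the spread between these samples. Values are log2 RMA signals, ± is the SD over the n = 3 arrays of a group, and differences are AML minus control.

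Sinusoids are the wide, leaky venous vessels of the marrow. Their endothelium is built on adherens junctions of VE-cadherin, takes up waste molecules through scavenger receptors such as stabilin-2, and is kept alive by VEGF and angiopoietin signals. Megakaryocytes sit against this wall and push platelet-forming extensions through it. Around it lie reticular stromal cells marked by the leptin receptor, and on the bone surface osteoblasts that deposit type I collagen, bone sialoprotein and osteocalcin.

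Most of the differences lay in the endothelial class and pointed down. Of 33 measured genes, 11 were lower and 1 was higher in AML at an adjusted p under 0.05 (limma's moderated test, Benjamini-Hochberg over all 30063 genes), while 4 were higher and 14 lower at an unadjusted p under 0.05. Over all genes 6.25% were called lower and 4.49% higher. At an unadjusted p under 0.05, 3546 of the 30063 genes were lower and 6306 higher. The 11 lower genes were Emcn, Cdh5, Flt4, Tek, Stab2, Ptprb, Cldn5 and Fabp4 of the endothelial class, Adipoq and Serping1 of the stromal class and Ibsp of the bone class. The higher gene was Pdgfrb. The median difference of the 33 genes was -0.15, against +0.11 over all genes. In 15 of the 33 every AML array lay below every control array, against 13.1% of all genes, and in 6 every AML array lay above, against 28.2% of all genes. With a minimum of 1.5-fold, 8 genes were lower and 0 higher, against 3.75% and 1.46% of all genes.

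The count of lower genes depended on single arrays. Leaving out AML_MK2 left 1 (Stab2), leaving out AML_MK1 left 8, and leaving out AML_MK3 gave 12. It was 7, 4 and 3 when CON_MK1, CON_MK2 or CON_MK3 was left out. Over all genes 1291 were lower without AML_MK1, 1071 without AML_MK2 and 1967 without AML_MK3, against 1880 with all 6 arrays. The all-gene number was 1693, 782 and 822 without CON_MK1, CON_MK2 or CON_MK3. These are bulk sorts, in which fewer cells of a type and less RNA per cell cannot be told apart.

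**Figure D1:**
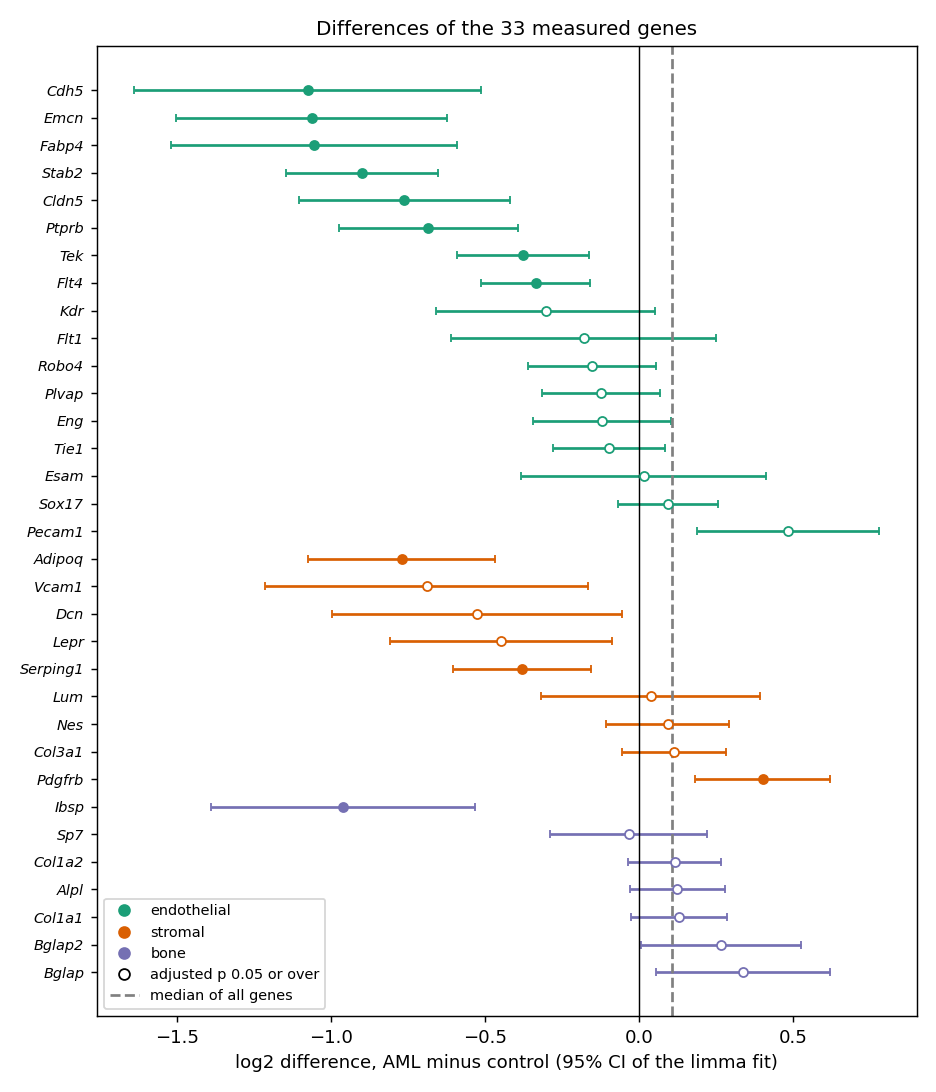
Log2 differences, AML minus control, of the 33 measured genes with the 95% confidence interval of the limma fit. Filled points passed an adjusted p of 0.05, and the dashed line is the median difference of all 30063 genes (+0.11). Endothelial genes reach from -1.08 for Cdh5 to +0.48 for Pecam1, and most bone genes lie close to the dashed line.

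A scale for low signals was taken from the 1718 olfactory and vomeronasal receptor genes on the array, families of sensory neurons. The 95th percentile of their mean levels was 5.83 in AML and 5.27 in control, and their median was 3.62 in AML and 3.35 in control. In AML 11 of the 33 genes averaged above that percentile, against 24 in control. The limit was itself higher in AML, so these counts do not set the groups on a shared scale. Kdr, which was not called, averaged 5.80 in AML and 6.11 in control and lay above the limit in control only. Of the 11 lower genes, Fabp4 alone lay above the AML limit, against 10 above the control limit (all but Adipoq). Set against the lower control percentile of 5.27, the AML means of 6 of the 11 (Cdh5, Flt4, Stab2, Cldn5, Fabp4 and Serping1) lay above it. For a gene within the receptor range the size of a difference says little about how far its transcript differed.

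**Figure D2:**
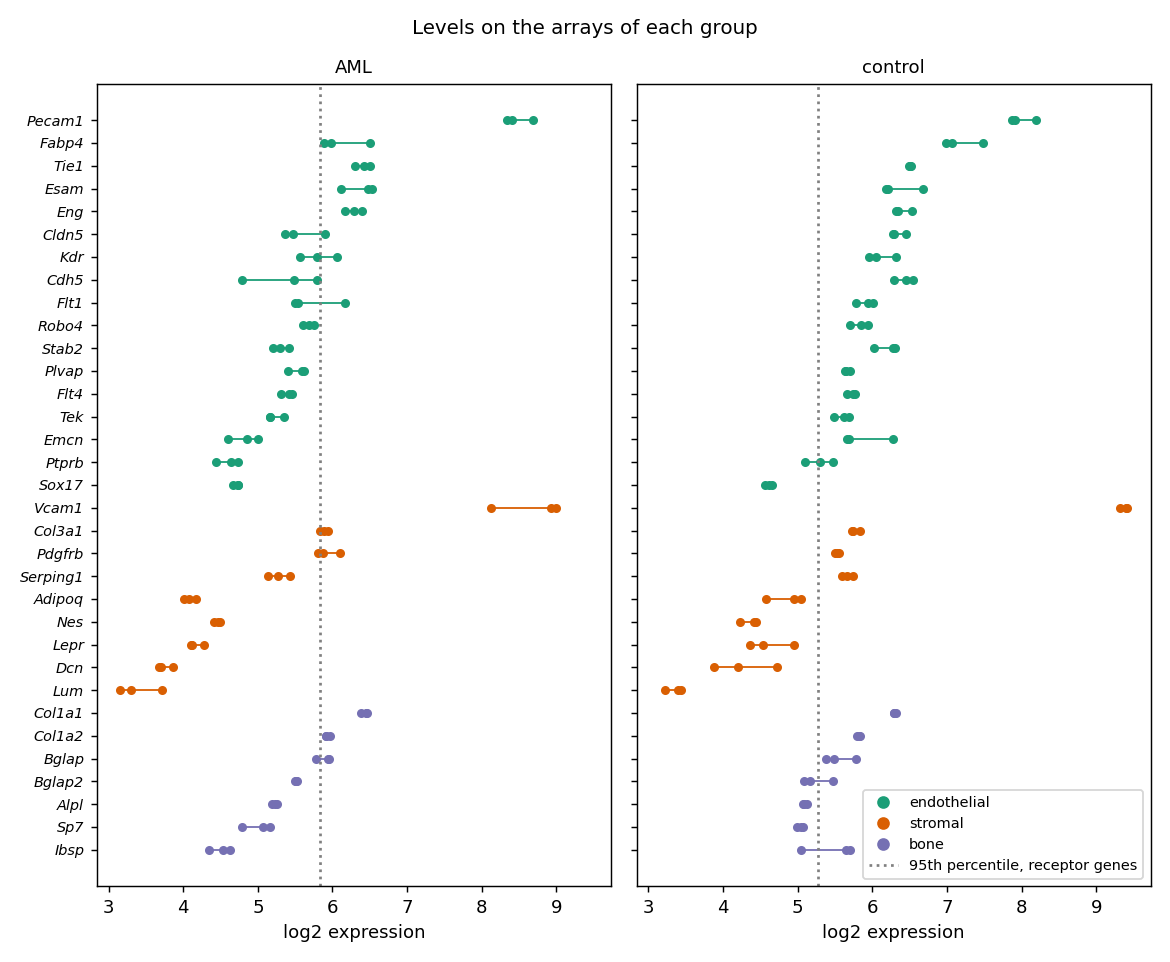
Log2 signal of the 33 measured genes on the 3 AML arrays (left) and the 3 control arrays (right), with 1 point an array and a line over the range. The dotted line is the 95th percentile of the receptor genes in that group, 5.83 in AML and 5.27 in control. Signals of different rows are not amounts of transcript that can be set against each other.

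Several markers of the vessel wall were lower in AML. Stab2, the hyaluronan scavenger receptor typical of sinusoids, had signals of 5.41, 5.30 and 5.20 on the AML arrays, against 6.31, 6.28 and 6.02 on the control arrays. The groups did not overlap and each stayed within a narrow band. Stab2 averaged 5.30 ± 0.11 in AML and 6.20 ± 0.16 in control, a difference of -0.90 (SE 0.10, 1.87-fold lower, adjusted p = 0.0037). This was the only one of the 12 called genes that kept its call under each of its 15 alternatives (adjusted p 9.6e-04 to 0.0261).

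Emcn, which encodes the sialomucin endomucin of venous and sinusoidal endothelium, had 4.998, 4.85 and 4.60 in AML, against 6.28, 5.69 and 5.67 in control. CON_MK1 stood above the other two, and all 3 AML values lay below the control values and within the receptor range. Emcn averaged 4.81 ± 0.20 in AML and 5.88 ± 0.35 in control and fell by 1.06 (SE 0.19, adjusted p = 0.0170). Over 14 alternatives the adjusted p ran from 0.0075 to 0.0523, and the call was lost when AML_MK2 was left out.

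Cdh5, the gene of VE-cadherin and the defining adhesion molecule of endothelium, had 5.79, 5.49 and 4.79 in AML, against 6.45, 6.54 and 6.30 in control. AML_MK3 lay well below the other AML arrays. Cdh5 averaged 5.35 ± 0.51 in AML and 6.43 ± 0.12 in control and fell by 1.08 (SE 0.24, adjusted p = 0.0348). The call was lost when AML_MK2 (adjusted p = 0.0757), CON_MK1 (0.0734), CON_MK2 (0.128) or CON_MK3 (0.0987) was left out, in a range of 0.0093 to 0.128 over 15 alternatives.

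Cldn5, the tight junction protein claudin-5, had 5.90, 5.47 and 5.36 in AML, against 6.28, 6.29 and 6.46 in control. It fell by 0.76 (SE 0.15, adjusted p = 0.0219), without overlap of the groups. Over 15 alternatives its adjusted p ran from 0.0074 to 0.0916, and the call was lost on leaving out AML_MK2 (0.0707), CON_MK2 (0.0805) or CON_MK3 (0.0916).

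Other junction genes did not fall with these. Pecam1, an adhesion molecule of endothelium that platelets and leukocytes also carry, had 8.68, 8.41 and 8.34 in AML, against 8.19, 7.87 and 7.92 in control. All 3 AML values lay above the control values, a difference of +0.48 (SE 0.13) with an adjusted p of 0.0533. In 7 of 15 alternatives it was called higher, with adjusted p from 0.0084 to 0.180 over all 15. These included the fits that left out AML_MK3 (0.0441) or CON_MK1 (0.0415). Esam, which is shared by endothelium and platelets, had 6.53, 6.11 and 6.48 in AML, against 6.68, 6.22 and 6.18 in control. Its groups overlapped throughout, with a difference of +0.01 (95% CI -0.38 to 0.41, adjusted p = 0.956) whose sign turned under median centring and in 4 of the 6 fits that left out an array.

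The kinase receptors that carry VEGF and angiopoietin signals gave smaller differences. Flt4, a VEGF receptor of lymphatic and sinusoidal endothelium, had 5.45, 5.41 and 5.30 in AML, against 5.74, 5.77 and 5.67 in control. Tek, the angiopoietin receptor, had 5.16, 5.16 and 5.35 in AML, against 5.62, 5.69 and 5.49 in control. Neither overlapped between groups, and they fell by 0.34 (SE 0.07, adjusted p = 0.0351) and by 0.38 (SE 0.09, adjusted p = 0.0437). Both calls were lost when AML_MK1, AML_MK2 or a control array was left out, at adjusted p from 0.0648 to 0.162. Ptprb, the phosphatase that acts on the angiopoietin receptor and VE-cadherin, fell further.

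Ptprb had 4.74, 4.65 and 4.44 in AML, against 5.48, 5.30 and 5.10 in control, with no overlap. It fell by 0.68 (SE 0.12, adjusted p = 0.0182, range over 13 alternatives 0.0055 to 0.0800), and lost its call without AML_MK2 (0.0544) or CON_MK2 (0.0800). Tie1, the orphan partner of Tek, had 6.42, 6.30 and 6.50 in AML, against 6.51, 6.50 and 6.50 in control. Its difference of -0.10 (95% CI -0.28 to 0.08, adjusted p = 0.380) did not pass. Kdr and Flt1, the other VEGF receptors, differed by -0.30 and -0.18 with overlapping groups (adjusted p 0.199 and 0.494).

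Fabp4 encodes a fatty acid carrier of capillary endothelium, fat cells and macrophages. It had 6.51, 5.89 and 5.98 in AML, against 7.49, 7.07 and 6.99 in control, and AML_MK1 and CON_MK1 were the highest of their groups. Fabp4 averaged 6.13 ± 0.33 in AML and 7.18 ± 0.27 in control and fell by 1.06 (SE 0.20, 2.08-fold lower, adjusted p = 0.0203). Both means lay above the receptor range of their group. The call was lost on leaving out AML_MK2 (0.0628), CON_MK2 (0.0694) or CON_MK3 (0.0562), in a range of 0.0091 to 0.0694 over 15 alternatives.

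The remaining endothelial genes did not pass. Eng, a coreceptor of TGF-beta family ligands, differed by -0.12, Robo4, a guidance receptor of vessels, by -0.15, and Plvap, which forms the diaphragms of vessel pores, by -0.12 (adjusted p 0.252 to 0.383). The 3 Plvap values in AML nevertheless lay below the control values, by little. Sox17, a transcription factor of arterial endothelium, stood at 4.71 ± 0.04 in AML and 4.62 ± 0.05 in control (adjusted p = 0.342), within the receptor range in both groups. In all, 8 of 17 endothelial genes were lower (47.1%, against 6.25% of all genes) and 0 higher (against 4.49%) by limma. At an unadjusted p under 0.05, 8 were lower and 1 higher, against 3546 and 6306 of all 30063 genes. The median difference of the 17 was -0.30.

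**Figure D3:**
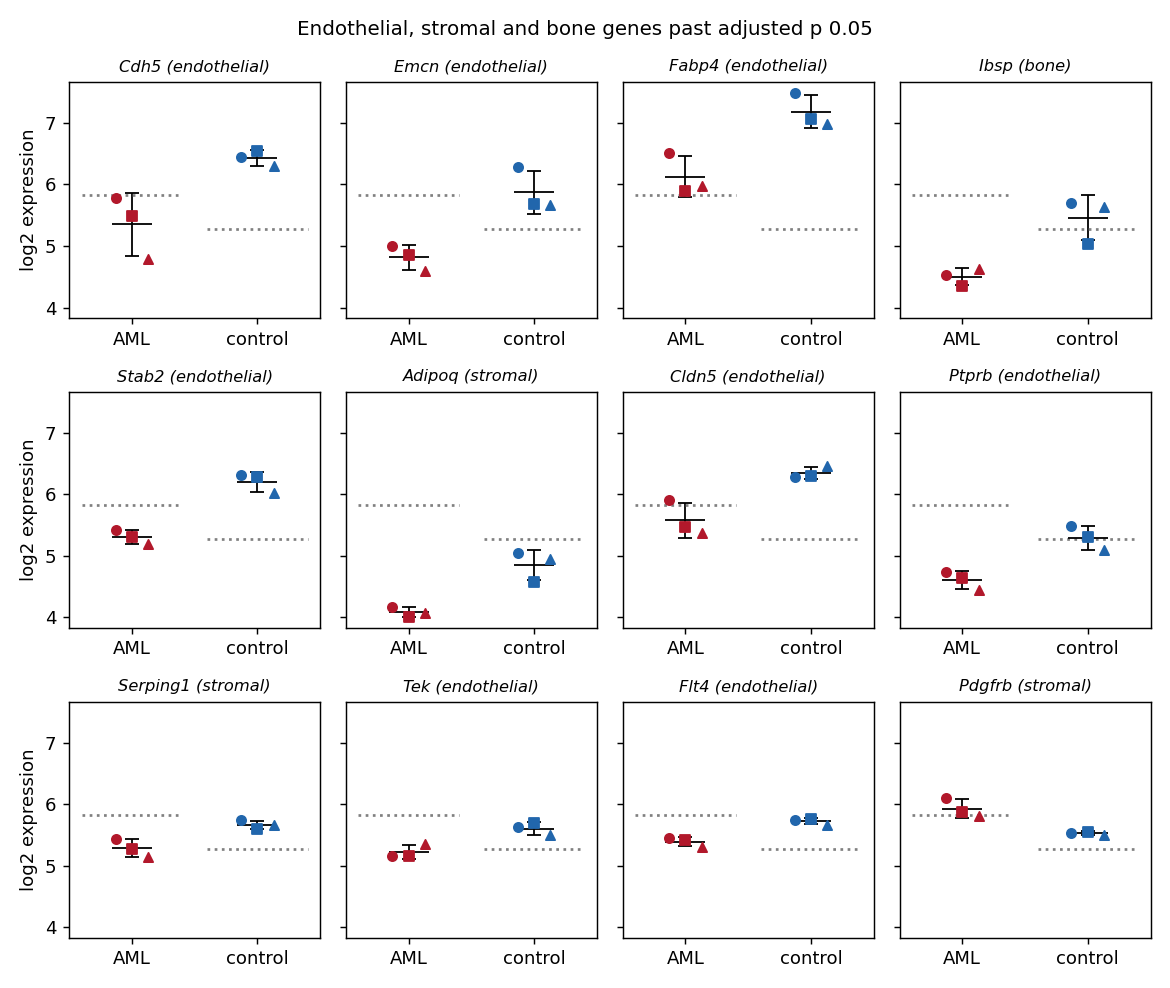
Log2 signal on each array of the 12 genes past an adjusted p of 0.05, ordered by their difference (circle, square and triangle are arrays MK1, MK2 and MK3). Black bars are the mean and SD of a group, and dotted lines are the 95th percentile of the receptor genes in that group. AML values lie below control values in 11 panels and above them in the panel of Pdgfrb.

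Promoters are shown for the 5 called genes with the largest falls among those in the RefSeq promoter table. The table held 18 of the 33 genes. Each line gives the 250 bases before the gene's start, 5′ to 3′ on the gene's strand, in GRCm38.p6. Capitals mark AGGAAG or its reverse complement CTTCCT, a word that holds the GGAA core bound by ETS factors, which act in endothelium and megakaryocytes alike.
Emcn: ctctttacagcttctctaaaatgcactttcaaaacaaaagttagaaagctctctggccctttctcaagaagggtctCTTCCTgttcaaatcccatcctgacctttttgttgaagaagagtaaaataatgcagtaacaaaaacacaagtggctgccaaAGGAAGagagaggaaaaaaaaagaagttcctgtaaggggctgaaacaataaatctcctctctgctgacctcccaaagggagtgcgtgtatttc
Ibsp: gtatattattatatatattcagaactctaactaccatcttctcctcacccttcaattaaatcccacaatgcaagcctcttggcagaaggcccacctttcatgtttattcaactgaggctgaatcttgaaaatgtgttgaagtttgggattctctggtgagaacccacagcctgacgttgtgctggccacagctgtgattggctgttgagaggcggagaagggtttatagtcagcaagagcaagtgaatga
Stab2: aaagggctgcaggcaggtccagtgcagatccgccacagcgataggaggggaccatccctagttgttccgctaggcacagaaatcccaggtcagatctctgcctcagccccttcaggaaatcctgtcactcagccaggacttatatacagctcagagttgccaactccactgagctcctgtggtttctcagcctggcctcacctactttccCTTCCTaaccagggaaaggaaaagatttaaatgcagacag
Adipoq: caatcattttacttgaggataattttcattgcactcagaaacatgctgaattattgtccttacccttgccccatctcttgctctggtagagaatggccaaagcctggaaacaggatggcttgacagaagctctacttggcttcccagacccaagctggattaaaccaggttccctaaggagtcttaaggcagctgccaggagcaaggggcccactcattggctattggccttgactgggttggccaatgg
Cldn5: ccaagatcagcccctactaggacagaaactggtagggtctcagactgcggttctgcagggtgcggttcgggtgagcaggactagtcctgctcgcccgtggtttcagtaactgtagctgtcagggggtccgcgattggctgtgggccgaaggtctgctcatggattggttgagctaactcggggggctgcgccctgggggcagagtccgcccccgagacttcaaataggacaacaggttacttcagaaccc
The windows lie at chr3:137340828-137341077 (plus strand) for Emcn, chr5:104299037-104299286 (plus) for Ibsp, chr10:87007943-87008192 (minus) for Stab2, chr16:23146286-23146535 (plus) for Adipoq and chr16:18776597-18776846 (plus) for Cldn5. The word occurred 2 times before Emcn and 1 time before Stab2, and 0 times in the windows of Ibsp, Adipoq and Cldn5. It was found in the windows of 6 of 10 endothelial genes (60.0%), 1 of 4 stromal and 1 of 4 bone genes, and of 8734 of 27025 genes in the whole table (32.3%). Of the 7 lower genes with a window, 2 held it (28.6%). These matches are descriptions of the letters and show no binding.

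In the stromal class, a gene of fat cells and a complement inhibitor fell and a growth factor receptor rose. Adipoq, the adiponectin gene of adipocytes and of the adipogenic stroma, had 4.17, 4.01 and 4.07 in AML, against 5.04, 4.58 and 4.95 in control. It fell by 0.77 (SE 0.13, adjusted p = 0.0143), although all 6 values lay within the receptor range of their group. Its call was lost without AML_MK2 (0.0518) or CON_MK3 (0.0671), in a range of 0.0064 to 0.0671 over 13 alternatives.

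Serping1, the C1 inhibitor made by reticular stroma and by myeloid cells, had 5.43, 5.28 and 5.14 in AML, against 5.74, 5.59 and 5.66 in control. It fell by 0.38 (SE 0.10) at an adjusted p of 0.0491. Leaving out any of the arrays but AML_MK1 ended the call, at adjusted p from 0.0672 to 0.141.

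Pdgfrb, the PDGF receptor of pericytes and mesenchymal cells, had 6.10, 5.88 and 5.81 in AML, against 5.53, 5.56 and 5.50 in control. The groups did not overlap and the gene rose by 0.40 (SE 0.09, 1.32-fold, adjusted p = 0.0393). It lost the call under median centring (0.131), renewed quantile normalization (0.0668) and cyclic loess (0.0501). Leaving out AML_MK1, AML_MK2 or a control array ended it too, at adjusted p from 0.0759 to 0.132.

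Vcam1, an adhesion ligand on stroma, sinusoids and marrow macrophages, had 9.001, 8.93 and 8.13 in AML, against 9.32, 9.41 and 9.39 in control. AML_MK3 stood apart from the other AML arrays, and no AML value reached the control values. The difference was -0.69 (95% CI -1.21 to -0.16, adjusted p = 0.0891). It was called lower without AML_MK3 (adjusted p = 0.0215) and with array weights (0.0329), in a range of 0.0215 to 0.230 over 15 alternatives.

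Lepr, the leptin receptor of perivascular stroma, stood at 4.17 ± 0.10 in AML and 4.62 ± 0.30 in control (adjusted p = 0.100), and the proteoglycan gene Dcn at 3.75 ± 0.10 in AML and 4.27 ± 0.42 in control (adjusted p = 0.125). In both genes all AML values lay below the control values and CON_MK1 was the highest, at 4.95 and 4.73. Both lay within the receptor range in both groups, as did Nes, an intermediate filament of niche cells, and Lum, a further matrix proteoglycan. Col3a1, a fibrillar collagen, had 5.89, 5.93 and 5.83 in AML, against 5.83, 5.73 and 5.74 in control, a difference of +0.11 (adjusted p = 0.283) that equalled the median of all genes. Of the 9 stromal genes 2 were lower (22.2%, against 6.25% of all genes) and 1 higher (11.1%, against 4.49%), with a median difference of -0.38.

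The bone class split between bone sialoprotein and the rest. Ibsp, a mineral-binding matrix protein of osteoblasts, had 4.53, 4.35 and 4.62 in AML, against 5.70, 5.04 and 5.64 in control. CON_MK2 was the lowest of its group and still lay above the AML values. Ibsp averaged 4.50 ± 0.14 in AML and 5.46 ± 0.37 in control and fell by 0.96 (SE 0.18, adjusted p = 0.0213). The call was lost on leaving out AML_MK1 (0.0553), AML_MK2 (0.0686) or CON_MK3 (0.0880), in a range of 0.0088 to 0.0880 over 13 alternatives.

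The collagen and mineralisation genes of osteoblasts did not fall with it. Col1a1 had 6.45, 6.46 and 6.38 in AML, against 6.31, 6.30 and 6.29 in control. Col1a2 had 5.97, 5.92 and 5.92 in AML, against 5.84, 5.82 and 5.79 in control. The 2 chains of type I collagen thus lay above control on every AML array, by +0.13 and +0.12 (adjusted p 0.206 and 0.240), close to the +0.11 of all genes. Under median centring these differences were +0.01 and -0.005. Alpl, the alkaline phosphatase of bone, differed by +0.12 (adjusted p = 0.218) and Sp7, the osteoblast transcription factor osterix, by -0.03 (adjusted p = 0.834).

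Bglap and Bglap2, neighbouring near-identical copies of the osteocalcin gene, had positive differences that did not pass. Bglap had 5.78, 5.96 and 5.94 in AML, against 5.79, 5.49 and 5.38 in control, and Bglap2 had 5.49, 5.51 and 5.53 in AML, against 5.48, 5.16 and 5.09 in control. CON_MK1 lay level with the AML arrays in both genes. The differences were +0.34 and +0.27 (adjusted p 0.108 and 0.146). Without CON_MK1 both passed upward (0.0410 and 0.0384), and with array weights too (0.0434 and 0.0458). Whether their rows share probe signal was not tested, so the 2 rows may not be separate measurements. Of the 7 bone genes 1 was lower (14.3%, against 6.25% of all genes) and 0 higher (against 4.49%) by limma. At an unadjusted p under 0.05, 1 was lower and 2 higher, against 3546 and 6306 of all 30063 genes. The median difference of the bone genes was +0.12.

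Other genes of the same 3 kinds were listed from textbook knowledge, though with earlier results of these data known. Of 27 further endothelial genes, 2 were lower and 1 higher (8 and 2 at an unadjusted p under 0.05), with a median difference of -0.08. The shares past the adjusted threshold, 7.41% lower and 3.70% higher, were near those of all genes (6.25% and 4.49%). At an unadjusted p under 0.05, 3546 of all 30063 genes were lower and 6306 higher. In 9 of the 27 every AML array lay below every control array, against 13.1% of all genes. In 1 every AML array lay above, against 28.2%. Adgrf5, an adhesion receptor of endothelium, had 5.24, 5.02 and 4.90 in AML, against 6.09, 6.001 and 5.97 in control, and fell by 0.97 (SE 0.10, adjusted p = 0.0025). Mmrn2, a matrix protein of vessels, fell by 0.42 (adjusted p = 0.0255). Adgrf5 and Mmrn2 averaged within the receptor range in AML (5.05 and 4.97) and above it in control. Gja5, a connexin of arteries, rose by 0.37 (adjusted p = 0.0361), with both group means within the receptor range. Of the 27 genes, 20 averaged within the range of the group in AML, against 8 in control.

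Of 29 further stromal genes, 5 were lower (17.2%, against 6.25% of all genes) and 0 higher by limma (7 and 2 at an unadjusted p under 0.05). The 4 with the smallest p were Cxcl12 and Kitl, the niche factors that hold and feed blood stem cells, Bgn, a small proteoglycan, and Lpl, lipoprotein lipase. Bgn had 5.98, 5.93 and 5.54 in AML, against 7.02, 6.78 and 6.83 in control, and fell by 1.06 (SE 0.13, adjusted p = 0.0051). Lpl fell by 1.02 (SE 0.19, adjusted p = 0.0195), Cxcl12 by 0.76 (adjusted p = 0.0045) and Kitl by 0.34 (adjusted p = 0.0384). The AML means of these 4 genes lay within the receptor range of AML and their control means above that of control. Set against the lower control limit of 5.27, the AML means of Bgn (5.81) and Lpl (5.63) lay above it. Those of Cxcl12 (5.02) and Kitl (5.04) lay below it. Of the 29 genes, 23 averaged within the range of the group in AML, against 11 in control. Of 19 further bone genes 0 were lower and 0 higher by limma, against 6.25% and 4.49% of all genes. Their median difference was +0.13. At an unadjusted p under 0.05, 1 further bone gene was lower and 5 were higher. At that threshold 3546 of all 30063 genes were lower and 6306 higher.

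The arrays of a group also differed among themselves. Among the 11 lower genes, AML_MK1 was the highest AML array for 9, against 26.1% of all genes. CON_MK1 was the highest control array for 7 of the 11 and for 23 of all 33, against 42.0% of all genes. The endothelial median was 5.75, 5.49 and 5.60 on the AML arrays, against 6.28, 6.05 and 5.95 on the control arrays. The stromal median was 4.41, 4.46 and 4.50 in AML, against 5.04, 4.58 and 4.95 in control.

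Markers of other cells moved with the group as well. Of 20 macrophage markers 17 were lower and 0 higher (19 and 0 at an unadjusted p under 0.05), with a median difference of -1.07, and their median was 6.57 to 7.25 on the AML arrays, against 7.68 to 7.85 on the control arrays. Their summed linear signal was 2674 to 4100 in AML, against 6127 to 7102 in control. Of 15 monocyte markers 12 were lower (median difference -1.39), with a summed linear signal of 5551 to 7598 in AML, against 7831 to 8501 in control. Ly6c2, the brightest monocyte marker, weighs most in that sum. It was the only 1 of the 15 with a positive difference (+0.32, adjusted p = 0.187). Fabp4, Vcam1 and Serping1 are genes that macrophages or monocytes also use, and the part of these cells in their values was not tested. The mean lay within the receptor range for 5 of the 20 macrophage markers in AML, against 0 in control. Of all genes 6.25% were called lower and 4.49% higher. At an unadjusted p under 0.05, 3546 of 30063 genes were lower and 6306 higher.

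The megakaryocyte label was checked on 18 megakaryocyte and platelet markers, all of which averaged above the receptor range in both groups. By limma 0 of them were lower or higher (1 higher and 0 lower at an unadjusted p under 0.05), and their medians ran from 8.71 to 9.49 on the AML arrays, against 8.72 to 9.11 on the control arrays. Of 8 osteoclast markers 2 were lower, and of 9 markers of stem and progenitor cells, which can also express Tek, Emcn and Esam, 1 was higher (Cd34, by +0.66, adjusted p = 0.0264). Neutrophil markers were lower in 11 of 13, with a summed linear signal of 7719 to 9717 in AML, against 22765 to 26901 in control. The megakaryocyte and platelet markers summed to 18630 to 26105 in AML and to 20408 to 24735 in control. How pure the sorts were was not tested. Erythroid markers were lower in 4 of 7, B and plasma cell markers in 4 of 11, and T and NK markers in 0 of 11 with 1 higher. Over all genes 6.25% were lower and 4.49% higher by limma. At an unadjusted p under 0.05, 3546 of 30063 were lower and 6306 higher.

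**Figure D4:**
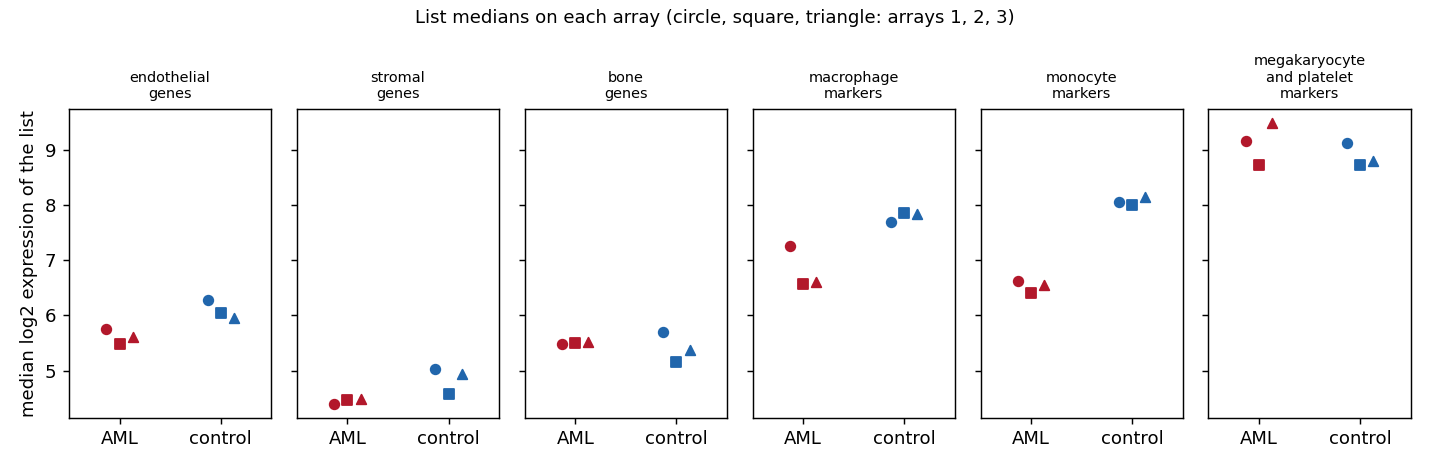
Median log2 signal of 6 gene lists on each array, AML left and control right in each panel. Endothelial genes lie at 5.49 to 5.75 in AML and at 5.95 to 6.28 in control, macrophage markers at 6.57 to 7.25 in AML and at 7.68 to 7.85 in control, and the megakaryocyte markers overlap.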

How the data were processed

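Total RNA of 6 sorts was hybridised to a whole-transcript Affymetrix array. The authors deposited log2 values made with RMA, per the submitters' processing notes. The version and the genome build are not given in the sources used here. RMA forces like distributions on the arrays, yet the all-gene median was 5.29 to 5.32 in AML and 5.16 to 5.24 in control, and median centring brought the median difference to -0.01. The number of arrays limits the precision.

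Of 72688 rows, 30604 had 1 gene symbol in the platform annotation, 2146 several and 39938 none. Symbols were updated through a RefSeq table of GRCm38.p6 (2 unmatched), and the row with the highest mean over 6 arrays was kept for each of 429 genes with more than 1 row. No per-sample column was left unused. The values were tested as deposited with limma 3.58.1 in R 4.3.3 (lmFit and eBayes, two-sided, Benjamini-Hochberg over 30063 genes, threshold 0.05). The fit was tested on simulated data. Genes described array by array were those past the threshold and the 4 with the highest mean in each class. Genes of further lists were named where they passed, at most 4 a direction. The members and lists were chosen with earlier results of these data known. Alternatives were median centring, cyclic loess and a second quantile normalization, the replicate number as a block, array weights or a variance trend in the fit, 2 filters on dim genes, averaging a gene's rows, a 1.5-fold minimum, and each array left out in turn. Same-numbered arrays did not deviate together.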

Additional observations from a re-analysis of the deposited data

How the results depend on the processing

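The count of lower genes, 11, was 11 or 12 with cyclic loess, median centring or a second quantile normalization, with array weights or a variance trend, and with averaged rows. Of all genes, 10.03% were lower with array weights, against 6.25% without. The count was 8 with a 1.5-fold minimum. It was 8 of 23 at or above the median level, where 14.1% of all genes were lower, and 5 of 19 above the receptor families, where 15.3% were. Both filters removed Ptprb, Adipoq and Ibsp, and the receptor filter also removed Emcn, Tek and Serping1, so these genes have fewer alternatives. The lower genes that stayed kept their calls. Leaving out single arrays gave 1 to 12, where 2.60% to 6.54% of all genes were lower. The count of higher genes, 1, was 0 under median centring and with a 1.5-fold minimum, where 1.68% and 1.46% of all genes were higher. It was 2 of 23 at or above the median level, where 8.25% of all genes were higher, and 2 of 19 above the receptor families, where 7.95% were. With array weights it was 4 (where 16.1% of all genes were higher). Without single arrays it was 0 to 3, where 0.615% to 5.45% of all genes were higher. With the replicate number as a block, 7 genes were lower and 0 higher, while over all genes 1067 were called in place of 3230. The calls lost there were those of Cldn5 (adjusted p = 0.0710), Pdgfrb (0.102), Serping1 (0.102), Flt4 (0.105) and Tek (0.138). The correlations of same-numbered arrays' deviations from their group means were -0.36, 0.14 and -0.29, so the numbers were not taken as pairs.

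Of the genes described array by array, the sign of Esam turned to -0.11 under median centring, and leaving out single arrays gave -0.073 to 0.17, with values of -0.065 (AML_MK1), -0.036 (AML_MK3), -0.057 (CON_MK2) and -0.073 (CON_MK3). Col3a1 turned to -0.0061 and Col1a2 to -0.0049 under median centring. The other 18 kept their sign in every alternative run, and in 46 of their comparisons a call was lost and in 13 gained. Low signals limit most of these genes, since only 11 of 33 averaged above the receptor range in AML.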

Other observations

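The row shared by Egfl7, a factor secreted by endothelium, and the microRNA gene within it had signals of 6.26, 6.15 and 6.07 on the AML arrays, against 6.35, 6.24 and 6.24 on the control arrays. The row that Pdgfra shares with a microRNA gene had 4.43, 4.43 and 4.39 in AML, against 4.44, 4.36 and 4.40 in control. In both rows the groups overlapped, and no test was made because the rows name more than 1 gene.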
